A study of Homo sapiens with 6 samples.

Results

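How cortisol acts on a cell depends in part on how much of it the cell makes on site. HSD11B1, an enzyme of the endoplasmic reticulum, regenerates active cortisol from inactive cortisone and takes its NADPH from H6PD, which oxidises glucose 6-phosphate in the same compartment. Cortisol binds the glucocorticoid receptor, encoded by NR3C1, and the receptor then enters the nucleus and switches on targets such as FKBP5, TSC22D3, PER1, DUSP1 and KLF9. In liver, this regeneration is best known from hepatocytes.

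These 8 genes were followed in LX-2 cells, a human line derived from hepatic stellate cells, the vitamin A-storing cells that turn into matrix-forming cells in an injured liver. RNA from cells with a mutation in exon 3 of MPI (MPI mutant, 3 libraries) was compared with RNA from wild-type cells (WT, 3 libraries). MPI encodes mannose phosphate isomerase, which links fructose 6-phosphate to mannose 6-phosphate. Both genotypes were kept in DMEM with fetal bovine serum, and the growth notes name no added steroid. The sources used here do not say whether the mutant cells were 1 clone, nor whether replicate libraries stem from different cultures. The p-values therefore reflect only how much these 6 libraries vary, and part of that may be technical.

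All 8 genes were among the 17911 genes of the table. HSD11B1 was chosen by its own near off-to-on difference between the genotypes, so its values are given as a description with no test. The other 7 were named for their roles, though with earlier results of these data known. Levels are normalised read counts, which are reads divided by a size factor per library, so that 1 read is worth 0.907 to 1.16. Fold changes compare MPI mutant with WT (mutant over WT), on the scale log2(value + 1), and are followed by ± SE, and adjusted p-values come from limma over 17893 genes. A gene rose or fell if that p was under 0.05.

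The libraries held 27037905 to 34970840 reads of the listed genes. MPI measured 978 to 1051 in the mutant libraries and 1256 to 1292 in the WT libraries; the count covers the whole gene and does not show the sequence of exon 3. Of 12 stellate or fibroblast markers, 9 were listed, of which VIM rose and COL1A2, PDGFRB, PDGFRA, ACTA2 and LUM fell, and the median log2 fold change was -0.47. Their summed level was 145218 to 171199 in the mutant libraries and 128885 to 135862 in the WT libraries, the opposite direction to the median. DES, LRAT and DCN were not among the listed genes. Of 10 hepatocyte markers 2 were listed, with a summed level of 68.6 to 119 in the mutant libraries and 172 to 194 in the WT libraries, and ALB and APOA1 were not among the listed genes. Of 5 adipocyte markers only PLIN1 was listed, at 7.50 to 15.4 in the mutant libraries and 9.98 to 14.0 in the WT libraries. Of 7 endothelial markers 5 were listed and 2 rose, TEK and PECAM1, with a summed level of 520 to 761 in the mutant libraries and 186 to 232 in the WT libraries; CDH5 and LYVE1 were not among the listed genes. Of 7 leukocyte markers 3 were listed, of which CD68 rose and CD14 fell, with a summed level of 280 to 309 in the mutant libraries and 495 to 577 in the WT libraries. Of 5 cholangiocyte or epithelial markers 3 were listed, of which SOX9 rose, with a summed level of 2710 to 3257 in the mutant libraries and 1921 to 2155 in the WT libraries. Beside these marker counts, 16.0% of all tested genes rose and 16.6% fell. The part of other cell types in the results was not tested.

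HSD11B1 (ENSG00000117594) lies on chromosome 1, 209686178 to 209734950, plus strand, in the GRCh38 coordinates of GENCODE 29. It had 180, 121 and 142 reads in the mutant libraries, against 1, 1 and 0 reads in the WT libraries. As normalised counts these were 167, 113 and 145 in the mutant libraries and 0.907, 1.16 and 0 in the WT libraries. Each mutant library thus held at least 121 reads, and the WT libraries were at or near 0. In RNA from a whole culture, fewer cells of a type and less RNA per cell cannot be told apart. The ratio of the summed, scaled reads was 206, and its exact Poisson 95% interval, 56.7 to 1706, reflects counting error alone and is set by the 2 WT reads. The WT library with no read would still allow a level of up to 3.19, which is what 3 reads are worth there. AL031316.1, an antisense gene that was not among the listed genes, overlaps HSD11B1. Whether reads were counted by strand was left unsaid in the sources used here, so reads of this pair cannot be told apart.

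**Figure D1:**
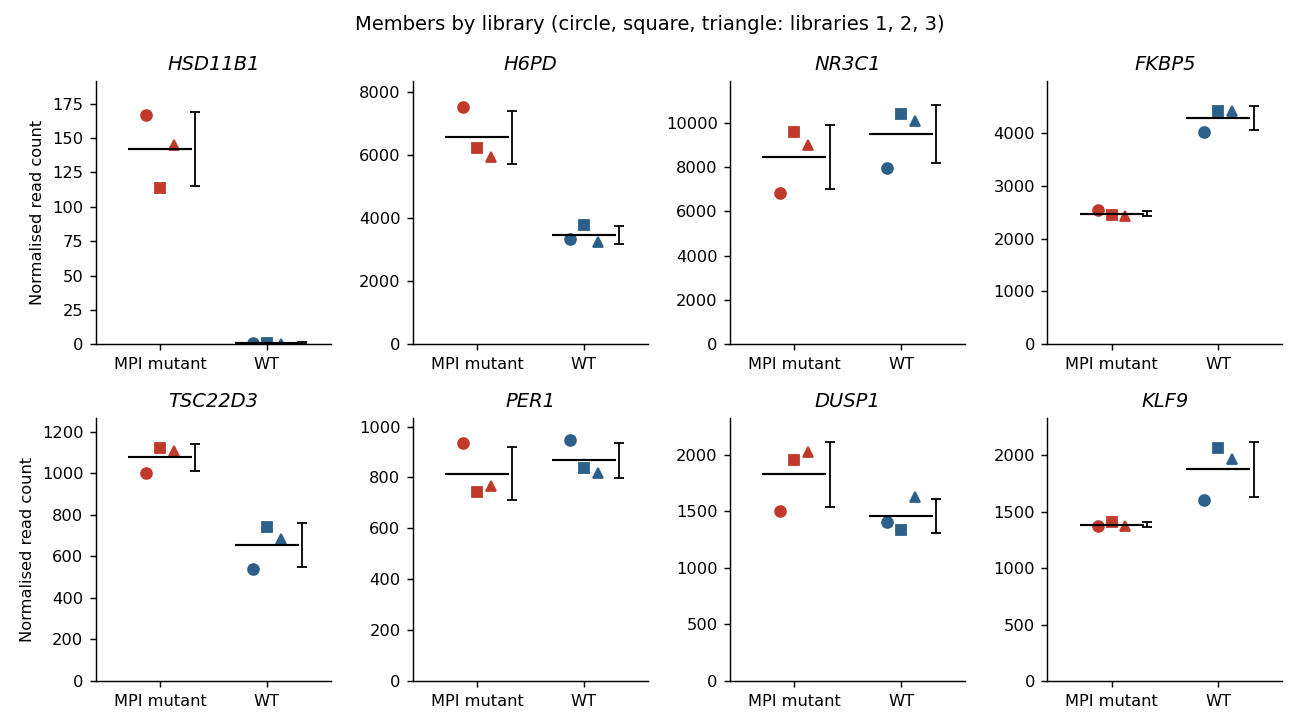
Normalised read counts (y axis, from 0) of the 8 genes in each library, with MPI mutant libraries on the left and WT libraries on the right of each panel; horizontal lines are means and bars are 1 SD (n = 3 libraries per genotype). HSD11B1 is at 113 to 167 in the mutant and at 0 to 1.16 in WT, H6PD and TSC22D3 are higher in every mutant library, FKBP5 and KLF9 are lower in every mutant library, and NR3C1, PER1 and DUSP1 overlap between the genotypes.

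H6PD (ENSG00000049239, chromosome 1, 9234775 to 9271337, plus strand), the source of the NADPH that HSD11B1 uses, rose as well. Its level was 7512, 6227 and 5936 in the mutant libraries, against 3335, 3791 and 3251 in the WT libraries. The lowest mutant library was above the highest WT library. The means were 6559 ± 838 in the mutant and 3459 ± 290 in WT (SD, n = 3 each), a ratio of 1.90, or 0.92 ± 0.10 on the log2 scale (limma adjusted p = 3.22e-04). Mutant replicate 1, which had the most HSD11B1 reads, also had the most H6PD, but mutant replicates 2 and 3 were in opposite order. Replicate 2 had 121 HSD11B1 reads and 6227 of H6PD, and replicate 3 had 142 reads and 5936. With mutant replicate 1 left out the log2 fold change of H6PD was 0.82.

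Set against exon length, HSD11B1 remained the lowest of the 8 in both genotypes. Per kb of exon, the mutant libraries had 93.8 ± 17.8 normalised counts of HSD11B1 and 704 ± 90.0 of H6PD. The WT libraries had 0.456 ± 0.404 of HSD11B1 and 371 ± 31.2 of H6PD. In the mutant the order per kb was NR3C1 (922 ± 159), DUSP1 (906 ± 142), H6PD, KLF9 (268 ± 4.30), FKBP5 (233 ± 5.01), TSC22D3 (226 ± 13.7), PER1 (116 ± 15.0) and HSD11B1. In WT it was NR3C1 (1033 ± 144), DUSP1 (722 ± 73.5), FKBP5 (403 ± 21.1), H6PD, KLF9 (363 ± 47.4), TSC22D3 (137 ± 22.3), PER1 (124 ± 9.93) and HSD11B1. Among neighbours in the mutant order, the ranges of mean ± SD overlapped for NR3C1 and DUSP1, DUSP1 and H6PD, FKBP5 and TSC22D3, and PER1 and HSD11B1. In the WT order they overlapped for FKBP5 and H6PD, H6PD and KLF9, and TSC22D3 and PER1.

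NR3C1 (ENSG00000113580, chromosome 5, 143277931 to 143435512, minus strand), the receptor gene, was abundant in both genotypes. It measured 6812, 9577 and 8979 in the mutant libraries and 7968, 10400.2 and 10067 in the WT libraries. The groups overlapped, and the library numbered 1 was the lowest of each genotype. The log2 fold change was -0.17 ± 0.15, short of the threshold (limma adjusted p = 0.405). With the replicate number as a block, its adjusted p was 0.0134 at the same fold change, since each mutant library lay 0.12 to 0.23 on the log2 scale below the WT library of the same number.

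Of the 5 receptor targets, 1 rose and 2 fell, and the remaining 2 did not pass, where 16.0% of all tested genes rose and 16.6% fell. FKBP5 (ENSG00000096060, chromosome 6, 35573585 to 35728583, minus strand), a co-chaperone that lowers the hormone affinity of the receptor and so feeds back on it, fell. It measured 2532, 2453 and 2431 in the mutant libraries and 4026, 4418 and 4412 in the WT libraries. The groups were far apart relative to their spread, with means of 2472 ± 53.3 in the mutant and 4286 ± 225 in WT (SD, n = 3 each). The log2 fold change was -0.79 ± 0.06 (limma adjusted p = 6.39e-05), and it ranged from -0.85 to -0.77 over all alternatives.

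KLF9 (ENSG00000119138, chromosome 9, 70384597 to 70414624, minus strand), a transcription factor of the Krüppel-like family that glucocorticoids induce, was lower too. It measured 1372, 1411 and 1374 in the mutant libraries, against 1601, 2068 and 1965 in the WT libraries. The mutant libraries were within a narrow band below all WT libraries. The log2 fold change was -0.43 ± 0.10 (limma adjusted p = 0.0106). Without WT replicate 2 it was -0.36 and just missed the threshold (limma adjusted p = 0.0508).

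TSC22D3 (ENSG00000157514, chromosome X, 107713221 to 107777342, minus strand) encodes GILZ, a leucine zipper protein that carries part of the anti-inflammatory action of glucocorticoids. It rose, in contrast to FKBP5 and KLF9. It measured 1003, 1123 and 1108 in the mutant libraries and 537, 744 and 682 in the WT libraries. All mutant libraries were above all WT libraries, with means of 1078 ± 65.4 in the mutant and 654 ± 106 in WT (SD, n = 3 each). The log2 fold change was 0.73 ± 0.12 (limma adjusted p = 0.00250). The gene has several starts, and the counts do not show which transcript, GILZ or longer forms, the reads came from.

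DUSP1 (ENSG00000120129, chromosome 5, 172768090 to 172771195, minus strand), a phosphatase that switches off MAP kinases, measured 1501, 1959 and 2030 in the mutant libraries and 1411, 1340 and 1625 in the WT libraries. Mutant replicate 1 lay inside the WT range, and the other mutant libraries lay above it. The log2 fold change of 0.32 ± 0.13 did not pass (limma adjusted p = 0.0844). It passed with the replicate block (0.00375). Without mutant replicate 1 the log2 fold change was 0.46 (limma adjusted p = 8.53e-04).

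PER1 (ENSG00000179094, chromosome 17, 8140472 to 8156506, minus strand), a circadian clock repressor with a rapid glucocorticoid response, measured 936, 743 and 768 in the mutant libraries and 946, 838 and 817 in the WT libraries. The groups overlapped. Its log2 fold change was -0.09 ± 0.11 (limma adjusted p = 0.542), and it did not pass with the replicate block (0.265). Annotated genes, none of them listed, overlap NR3C1, FKBP5, TSC22D3, PER1 and DUSP1 too, so a share of their reads could belong to those.

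Among the 7 genes named by role, 2 rose and 2 fell, where 16.0% of all tested genes rose and 16.6% fell. With the replicate block 3 rose and 3 fell, where 25.1% and 24.6% of all tested genes did. Libraries did not overlap for 2 genes higher in the mutant and 2 lower, where this was so for 23.1% and 23.6% of all tested genes. The median log2 fold change of the 7 was -0.09, and that of all tested genes was -0.0031.

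**Figure D2:**
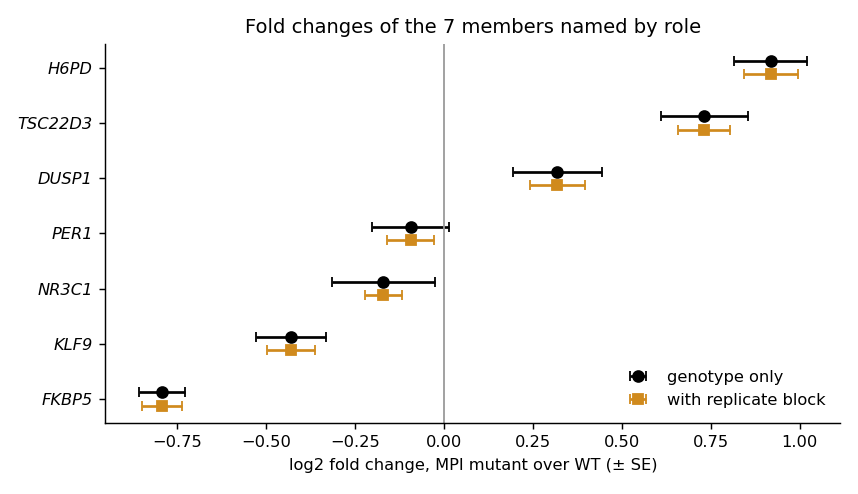
Log2 fold changes, MPI mutant over WT, of the 7 genes named by role (x axis), with SE from the fit with genotype only (black circles) and with the replicate block (orange squares). H6PD is at 0.92 and TSC22D3 at 0.73, FKBP5 is at -0.79 and KLF9 at -0.43, and NR3C1 at -0.17 and DUSP1 at 0.32 have a narrower SE with the block, where both passed.

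The starts of the 3 genes of the axis that differed most, HSD11B1, H6PD and FKBP5, are shown because the receptor binds DNA as a pair at AGAACA and TGTTCT set 3 bases apart. RefSeq (GRCh38.p14) gave 18 windows for the 8 genes, each from 250 bases before to 50 bases after an annotated start. A single hexamer, TGTTCT on either strand, was in 2 of these 18 windows and in 14.8% of all 35116 windows. Counted by gene, it was in 2 of the 8 and in 17.5% of all 27305 genes with a window. The full paired site was in 1 of all windows and in 0 of the 18, and TTGCGCAA, a palindrome bound by C/EBP factors, was in 0.151% of all windows and in 0 of the 18. Capitals below mark the hexamer.
HSD11B1, chr1:209685929-209686228, plus strand: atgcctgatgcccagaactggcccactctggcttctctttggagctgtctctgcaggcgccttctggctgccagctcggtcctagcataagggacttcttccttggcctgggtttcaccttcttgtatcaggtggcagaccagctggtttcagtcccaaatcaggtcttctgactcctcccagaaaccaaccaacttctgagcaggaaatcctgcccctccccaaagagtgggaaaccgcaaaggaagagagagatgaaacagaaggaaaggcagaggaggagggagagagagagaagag
H6PD, chr1:9239597-9239896, plus strand: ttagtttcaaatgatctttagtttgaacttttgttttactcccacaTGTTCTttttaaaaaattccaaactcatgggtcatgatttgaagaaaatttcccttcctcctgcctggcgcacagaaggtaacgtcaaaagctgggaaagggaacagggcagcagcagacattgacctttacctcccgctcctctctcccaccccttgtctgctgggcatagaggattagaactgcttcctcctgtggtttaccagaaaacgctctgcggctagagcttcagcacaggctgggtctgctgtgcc
FKBP5, chr6:35728534-35728833, minus strand: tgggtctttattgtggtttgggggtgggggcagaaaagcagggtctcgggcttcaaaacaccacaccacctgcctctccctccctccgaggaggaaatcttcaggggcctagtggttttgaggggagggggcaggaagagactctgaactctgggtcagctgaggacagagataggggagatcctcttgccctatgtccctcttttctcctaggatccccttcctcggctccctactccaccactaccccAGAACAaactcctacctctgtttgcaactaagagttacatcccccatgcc

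The HSD11B1 window holds no such hexamer. That window lies around the annotated start of the gene, 209686178. Any start farther inside the gene was not examined, for the hexamer or for TTGCGCAA. The H6PD window has TGTTCT 204 to 199 bases before its RefSeq start, and the FKBP5 window has AGAACA at bases 1 to 6 of the transcript. The H6PD window, at 9239597 to 9239896, lies inside the gene in the coordinates given above, where the gene begins at 9234775. No window covered that first position of H6PD, so the sequence before it was not examined. The window of HSD11B1 had 3 CG dinucleotides, where the median of all windows was 14, and 24.5% of windows had as few or fewer. FKBP5 has a second window with 38, and the counts do not show which start was used. Receptor sites of FKBP5 and of other targets are known from introns and from farther upstream, outside these windows.

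Genes beside HSD11B1 were then examined. GENCODE 29 places 18 other genes with starts within 500 kb of its start, of which 6 were listed. The nearest were lower in the mutant. G0S2, an inhibitor of triglyceride lipolysis that starts 10.8 kb upstream, measured 424, 348 and 363 in the mutant libraries, against 1436, 1411 and 1211 in the WT libraries. Every mutant library was far below every WT library. Its log2 fold change was -1.84 ± 0.11 (limma adjusted p = 1.36e-05). LAMB3, the laminin beta-3 chain, starts 33.7 kb upstream and measured 821, 707 and 726 in the mutant libraries and 1760.5, 1879 and 1733 in the WT libraries. It fell as well, at -1.25 ± 0.08 on the log2 scale (limma adjusted p = 1.88e-05). DIEXF, a nucleolar factor of ribosomal RNA processing now named UTP25, starts 142 kb downstream and rose slightly, to 1099.8 ± 47.9 in the mutant, against 855 ± 56.6 in WT (0.36 ± 0.08, limma adjusted p = 0.00840). CAMK1G (-0.51 ± 0.21), C1orf74 (0.32 ± 0.12) and SYT14 (0.69 ± 0.25) did not pass, with limma adjusted p from 0.0662 to 0.0977. With the replicate block all 3 passed, at 0.0237 for CAMK1G, 0.0202 for C1orf74 and 0.0151 for SYT14. Under that block 25.1% of all tested genes rose and 24.6% fell, against 16.0% and 16.6% without it. The genotype with HSD11B1 reads was thus the one with less G0S2 and LAMB3.

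**Figure D3:**
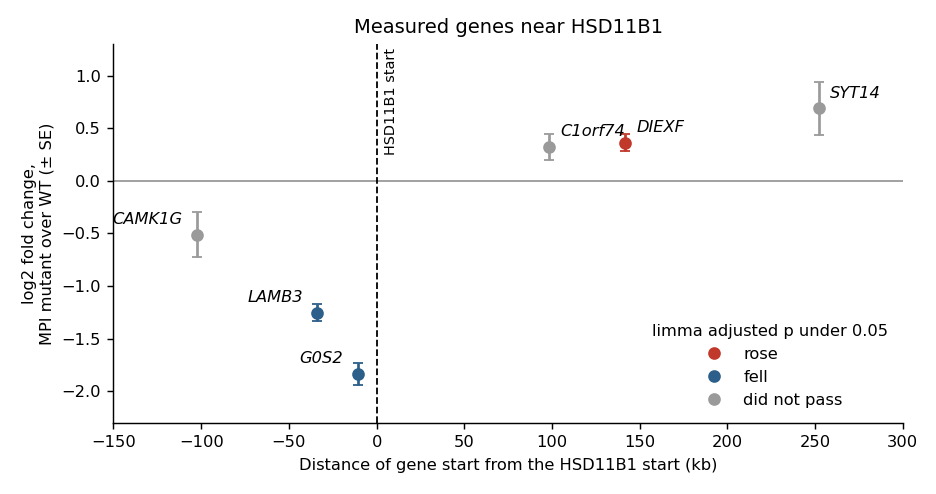
Log2 fold change, MPI mutant over WT, with SE (y axis) of the 6 listed genes around HSD11B1, by the distance of their start from its start in kb (x axis, negative is upstream). G0S2 at -1.84 and LAMB3 at -1.25, the closest upstream, are the lowest points, and DIEXF at 0.36 is the one that rose without the replicate block.

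The near off-to-on pattern by which HSD11B1 was chosen was rare in the table. In all, 10 of 17911 genes had at most 3 reads over the WT libraries and a mean of at least 10 in the mutant. The mirror pattern held for 22. The lowest mean over the 6 libraries in the table was 9.83. A gene near 0 in 1 genotype is therefore listed only if it is well above 10 in the other. Both counts may miss such genes at lower levels. HSD11B1 had the highest mutant mean of the 10. The next were NDN, an imprinted growth suppressor gene, with 69.6, 119 and 104 in the mutant libraries and 0.907, 0 and 0 in the WT libraries, and MSC, a basic helix-loop-helix repressor gene, with 70.5, 50.6 and 57.3 in the mutant libraries and 0, 0 and 2.12 in the WT libraries; both were named after their values were seen. By Pearson correlation of log2(value + 1) over the 6 libraries, the genes most like HSD11B1 were LINC01138, AL355916.1, GOLT1B, DOK1 and TRHDE, at 0.9976 to 0.9986. The 6 libraries form a high and a low genotype for each of these genes, and 107 genes exceeded 0.99. Such a correlation takes no account of the size of the difference. The ratios of mutant over WT were 8.79, 39.1, 1.31, 1.29 and 6.45, in the order named. None of these genes was among the 10 with the near off-to-on pattern. LINC01138, for example, measured 180, 158 and 187 in the mutant libraries and 21.8, 21.0 and 17.0 in the WT libraries.

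Other steroid-converting genes were looked at for the same axis. Of the 12 tested genes of glucocorticoid metabolism other than HSD11B1, 4 rose and 0 fell, against 16.0% and 16.6% of all tested genes, and their median log2 fold change was 0.24. AKR1C2, a ketosteroid reductase that inactivates steroid hormones, rose most. It measured 243, 310.4 and 313 in the mutant libraries and 29.9, 30.3 and 31.9 in the WT libraries, a ratio of 9.41 (3.18 ± 0.16, limma adjusted p = 6.11e-06). Its relatives AKR1C1 and AKR1C3 rose less, with ratios of 1.88 and 1.66 (limma adjusted p = 0.0202 and 0.0102). The AKR1C genes are near-identical copies, so reads may be split wrongly between them, and AKR1C1 lost its call in 3 of 18 alternatives, each leaving out a mutant library (limma adjusted p = 0.0630 to 0.0809). POR, which hands electrons to the cytochromes P450, rose to 1962 ± 205 in the mutant, against 1194 ± 80.8 in WT (0.71 ± 0.09, limma adjusted p = 7.33e-04). SRD5A1, a 5-alpha reductase, measured 1424 ± 85.1 in the mutant and 1594 ± 44.7 in WT and did not pass (limma adjusted p = 0.109; 0.0277 with the replicate block). FDX1, the ferredoxin of steroid-making P450 enzymes, was at 736 ± 114 in the mutant and 826 ± 52.0 in WT (limma adjusted p = 0.300). HSD11B2, which inactivates cortisol, was among the 13 of 26 genes of this list that were not in the table. With the replicate block 5 rose and 2 fell, against 25.1% and 24.6% of all tested genes.

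In the endoplasmic reticulum, H6PD depends on glucose 6-phosphate that crosses the membrane. Of 6 tested genes listed for this supply, H6PD included, 4 rose and 1 fell, with a median of 0.45. The shares of all tested genes were 16.0% and 16.6%. Those that rose include G6PC3, which competes for glucose 6-phosphate, and the cytosolic PGLS, so the count is not one of supply alone. Under the block 4 rose and 2 fell, where the shares of all tested genes were 25.1% and 24.6%. SLC37A4, the main glucose 6-phosphate carrier, measured 726, 688 and 617 in the mutant libraries and 861, 823 and 758 in the WT libraries. All mutant libraries were lower, and the difference of -0.27 ± 0.09 fell just short of the threshold (limma adjusted p = 0.0524; 0.00394 with the replicate block). Its relative SLC37A1 fell to 72.0 ± 5.51 in the mutant, against 131 ± 4.92 in WT (-0.86 ± 0.14, limma adjusted p = 0.00210). SLC37A2, another relative, rose to 736 ± 173 in the mutant, against 438 ± 74.1 in WT (0.73 ± 0.19, limma adjusted p = 0.0191). G6PC3, a phosphatase that competes for glucose 6-phosphate, rose to 2979 ± 594 in the mutant, against 2179 ± 159 in WT (0.43 ± 0.14, limma adjusted p = 0.0456), with mutant replicate 1 inside the WT range. PGLS, the cytosolic lactonase of the pentose phosphate pathway, rose to 991 ± 155 in the mutant, against 710.1 ± 49.4 in WT (limma adjusted p = 0.0172). The calls of SLC37A2, PGLS and G6PC3 were lost in 4, 4 and 5 of 18 alternatives, all of them with 1 library left out.

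**Figure D4:**
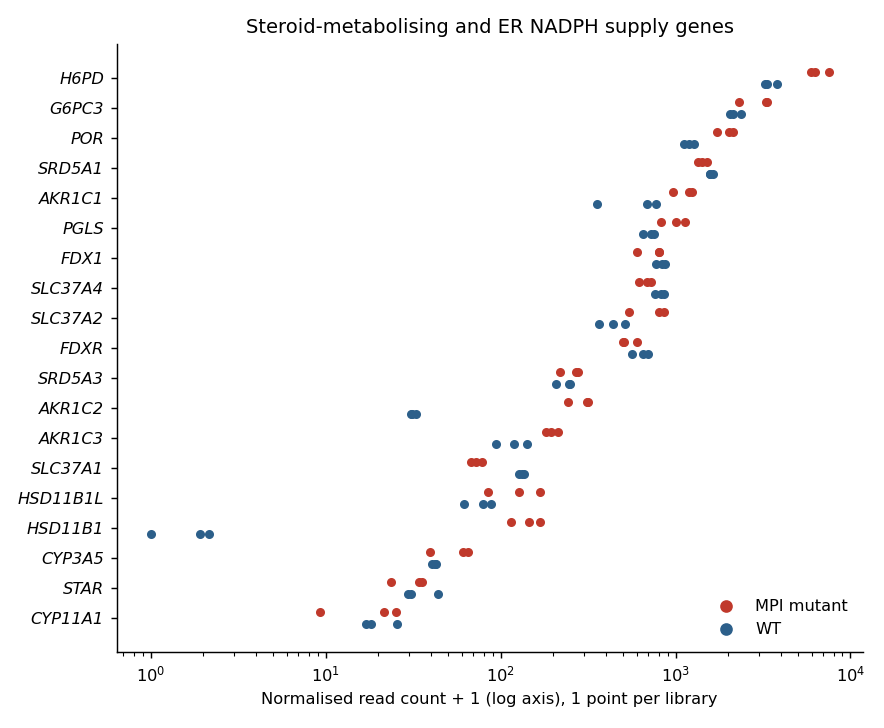
Normalised read count plus 1 in each library (x axis, log scale; red for MPI mutant, blue for WT) of the listed genes of glucocorticoid metabolism and of glucose 6-phosphate and NADPH supply in the endoplasmic reticulum, ordered by mean. HSD11B1 and AKR1C2 show the widest gaps between the genotypes, and H6PD is the most abundant.

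The receptor works in a complex with heat shock proteins and needs coregulators. Of 28 tested genes of this kind, NR3C1 and FKBP5 included, 11 rose and 4 fell, with a median of 0.12, beside 16.0% and 16.6% of all tested genes, so the count that fell was near the share of all genes. Under the block 13 rose and 7 fell, beside 25.1% and 24.6% of all tested genes. CDC37, a co-chaperone of HSP90, rose to 9054 ± 951 in the mutant, against 5557 ± 377 in WT (0.70 ± 0.09, limma adjusted p = 7.81e-04). DNAJB1, a co-chaperone of HSP70, rose to 7850.5 ± 892 in the mutant, against 4777 ± 444 in WT (0.71 ± 0.10, limma adjusted p = 0.00120). SMARCA4, the ATPase of a chromatin remodeller that the receptor recruits, rose too (0.60 ± 0.10, limma adjusted p = 0.00232). NR3C2, the mineralocorticoid receptor gene, whose product also binds cortisol, fell. It measured 93.7, 69.4 and 90.1 in the mutant libraries and 262, 208 and 251 in the WT libraries, with no overlap (-1.50 ± 0.16, limma adjusted p = 2.77e-04). HSPA8, a constitutive HSP70, averaged 78141 ± 13438 in the mutant and 64523 ± 5614 in WT (limma adjusted p = 0.168; 0.00325 with the replicate block). STIP1, which links HSP70 to HSP90, averaged 11504 ± 1315 in the mutant and 11843 ± 870.3 in WT (limma adjusted p = 0.758).

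Of 42 tested glucocorticoid-induced genes, the 5 targets above included, 10 rose, 13 fell and 19 did not pass, with a median of 0.11; of all tested genes 16.0% rose and 16.6% fell. With the replicate block 14 rose and 14 fell, and of all tested genes 25.1% and 24.6% did. ANGPTL4, a lipoprotein lipase inhibitor, rose most. It measured 154, 547 and 545 in the mutant libraries and 22.7, 39.6 and 40.4 in the WT libraries (3.40 ± 0.47, limma adjusted p = 9.88e-04), with the libraries numbered 1 lowest in both genotypes. CAVIN2, a caveola protein, fell to 1330.5 ± 143 in the mutant, against 4268 ± 481 in WT (-1.68 ± 0.11, limma adjusted p = 1.78e-05). FOXO1, a forkhead transcription factor, fell to 132 ± 17.7 in the mutant, against 401 ± 25.2 in WT (-1.60 ± 0.13, limma adjusted p = 5.63e-05). CRISPLD2, a secreted anti-inflammatory protein, fell to 364 ± 69.0 in the mutant, against 925 ± 247 in WT (-1.32 ± 0.21, limma adjusted p = 0.00213). The metallothionein gene MT2A averaged 9336 ± 1829 in the mutant and 7278 ± 273 in WT (limma adjusted p = 0.0885), and ANXA1, the annexin that mediates glucocorticoid effects on inflammation, averaged 11302 ± 2803 in the mutant and 10173 ± 1705 in WT (limma adjusted p = 0.640).

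**Figure D5:**
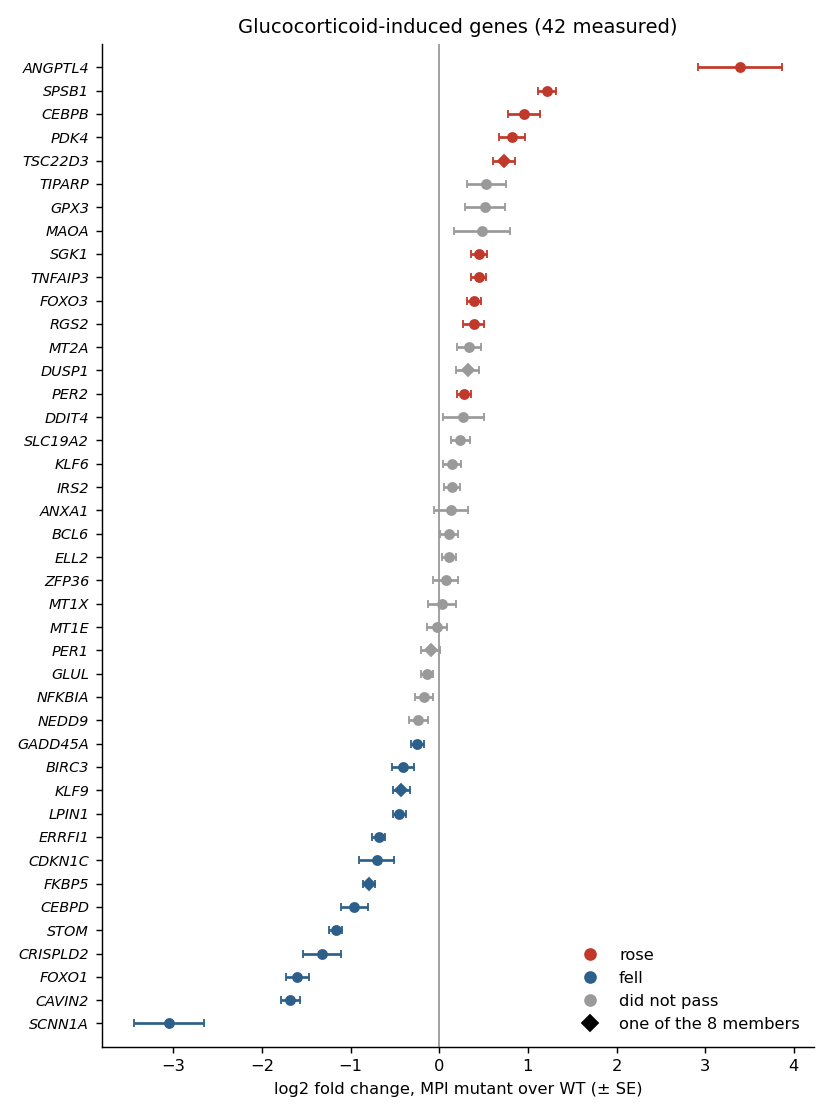
Log2 fold changes, MPI mutant over WT, with SE (x axis) of the 42 tested glucocorticoid-induced genes, sorted; red rose, blue fell, grey did not pass at a limma adjusted p under 0.05, and diamonds mark FKBP5, TSC22D3, PER1, DUSP1 and KLF9. Colours lie on both sides of 0, with 10 red and 13 blue points, from ANGPTL4 at 3.40 down to the sodium channel gene SCNN1A at -3.05.

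The inflammatory genes that the receptor represses in other cells were counted as well. Their list also holds the transcription factor genes RELA, NFKB1 and IRF3, so its counts are not of inflammatory effector genes alone. Of 25 tested, 11 rose and 6 fell, with a median of 0.31, where 16.0% and 16.6% of all tested genes did. Under the block 12 rose and 8 fell, where 25.1% and 24.6% of all tested genes did. The monocyte chemoattractant CCL2 measured 1816.5, 906 and 836 in the mutant libraries and 154, 144 and 112 in the WT libraries (3.03 ± 0.28, limma adjusted p = 1.20e-04). The related CCL7 rose with a log2 fold change of 4.46 ± 0.37, and the collagenase MMP1 with 3.17 ± 0.48 (limma adjusted p = 6.96e-05 and 0.00147). The T-cell chemoattractant CCL5 went the other way, with 29.7, 11.3 and 17.4 in the mutant libraries and 142, 196 and 137 in the WT libraries (-3.04 ± 0.33, limma adjusted p = 2.82e-04). RELA, an NF-kB subunit, averaged 4156 ± 174 in the mutant and 4537 ± 185 in WT (limma adjusted p = 0.171), and IRF1 averaged 1461 ± 317 in the mutant and 1731 ± 204 in WT (limma adjusted p = 0.217).

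Of 10 tested factors known to regulate HSD11B1 in liver or fat, 3 rose and 4 fell, with a median of -0.07 and the same counts with the replicate block. Of all tested genes 16.0% rose and 16.6% fell, and 25.1% and 24.6% with the block. CEBPB, a C/EBP factor that binds its promoter, measured 2184, 3234 and 3315 in the mutant libraries and 1191.5, 1591.5 and 1696 in the WT libraries. It rose (0.95 ± 0.18, limma adjusted p = 0.00469). CEBPD, another C/EBP factor, fell, with 237, 173 and 160 in the mutant libraries and 352, 394 and 347 in the WT libraries (-0.96 ± 0.16, limma adjusted p = 0.00220). IL1B, a cytokine that induces HSD11B1 in several cell types, rose to 6806 ± 1788 in the mutant, against 913 ± 241 in WT (2.90 ± 0.24, limma adjusted p = 7.28e-05). The liver X receptor genes NR1H2 and NR1H3 did not pass (limma adjusted p = 0.569 and 0.968).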

How the data were processed

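Poly(A)-selected RNA was sequenced in paired ends on an Illumina HiSeq, per the labels' protocols. Per the submitters' processing notes, the tools were STAR 2.5.2b, Trimmomatic 0.36, Subread 1.5.2 with featureCounts, and DESeq2, with GRCh38 as the build; their roles and settings are not stated there. The deposited values are a signal per gene and library. In every library 100% of values were whole multiples of 1 step within 0.01 of a read, as counts divided by a size factor are, with size factors of 0.859 to 1.10. Such scaling hides changes in total RNA. The authors also deposited a log2 fold change and a p-value, raw and adjusted, for each gene, which served as an alternative only. The lowest mean in the table was 9.83, and genes below are not analysed here.

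The main test was limma-trend (limma 3.58.1, R 4.3.3; robust) on log2(value + 1) on genotype alone, for the 17893 genes averaging 10 or more, adjusted by Benjamini-Hochberg over all of them; it was tested on simulated data. Alternatives were a replicate block, each library left out, both libraries numbered 1 left out, TMM and upper-quartile rescaling, a filter at 50 or none, 0.5 and 5 as pseudocounts, DESeq2 1.42.0 and edgeR 4.0.16 on recovered reads, the authors' columns and a threshold of 0.01; edgeR with the block was added after the data were seen. For the block, same-numbered libraries were treated as pairs, which no label states. Deviations from the genotype mean correlated between same-numbered libraries at 0.545, 0.189 and 0.276. Mutant replicate 2 and WT replicate 3 also correlated, at 0.299, and mutant replicate 3 and WT replicate 2 at 0.168. These values set apart the libraries numbered 1, but do not say how those numbered 2 and 3 pair. No libraries were merged, since replicates differed by a chi-square of 2.78 to 35.8 per gene, above counting noise.

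The members and all gene lists were chosen with earlier results of these data known. Within each list the text names up to 4 called genes of largest change averaging 100 or more in the higher genotype and up to 2 uncalled ones of highest mean, and all listed genes within 500 kb of HSD11B1. Among the regulators of HSD11B1, 1 gene that this rule names is not reported here. Exon lengths and coordinates are from GENCODE 29, a release chosen here.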

Additional observations from a re-analysis of the deposited data

How the results depend on the processing

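H6PD, FKBP5 and TSC22D3 kept their direction and their call under all 19 alternatives, and none of the 7 genes named by role changed sign. Of the genes named from the lists, STIP1, ANXA1 and NR1H3, none of them called, changed sign over the alternatives, with log2 fold changes of -0.10 to 0.05, -0.01 to 0.36 and -0.15 to 0.11. With the replicate block in limma, in edgeR (chosen after seeing the data), and without both libraries numbered 1, NR3C1 fell (-0.17, -0.16 and -0.14) and DUSP1 rose (0.32, 0.33 and 0.43); the block changed no call of the other 5 genes named by role. KLF9 lost its call without WT replicate 2 and at a threshold of 0.01, where 1 of the 7 genes fell.

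Under the replicate block, 4494 of all tested genes rose, and 4640 with edgeR and the block. With both libraries numbered 1 left out 4989 rose and 4788 fell, and at 0.01 these were 1513 and 1799. Leaving out 1 library gave 1749 to 4415 that rose and 2036 to 4291 that fell: 4415 rose without mutant replicate 1, 1749 without mutant replicate 2, 1829 without mutant replicate 3 and 1864 without WT replicate 2. With 1 library left out, 2 to 3 of the 7 genes rose and 1 to 2 fell, and the ratio of HSD11B1 reads was 139 to 290.

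In glucocorticoid metabolism 2 fell under the block (limma or edgeR) or without both libraries numbered 1, 2 rose at 0.01, and 0 to 2 fell and 3 to 4 rose with 1 library left out. In the supply of the endoplasmic reticulum 2 fell under these 3 settings, upper-quartile rescaling and a mean of at least 50, 1 rose at 0.01, and 1 to 2 fell and 1 to 4 rose with 1 library left out. Of the receptor, chaperones and coregulators 7 fell under the block, 7 with edgeR and the block, 8 with both libraries numbered 1 left out and 2 at 0.01, and with 1 library left out 2 to 5 fell and 8 to 15 rose. Of the induced genes 18 rose with both libraries numbered 1 left out and 16 with edgeR and the block, and 8 to 15 rose with 1 library left out. Of the regulators of HSD11B1 1 fell at 0.01, and 2 to 4 fell with 1 library left out. Why the counts moved under these settings was not tested.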
